A study of Mus musculus with 12 samples.

Results

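Cyp2f2, Selenbp1 and Txnip are 3 mouse genes of the published list of genes linked to Ser273 of PPARγ. They were selected on measured values of these arrays: each was higher with S273A PPARγ than with wild-type PPARγ, and each differed little between rosiglitazone and MRL24, with no numerical limit given for either. They are 3 of 12393 genes with a probe set of their own and 3 of 8675 bright enough to test. All their 5 probe sets passed the filter, with 1 for Cyp2f2 and 2 each for Selenbp1 and Txnip.

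Expression was measured on 12 Affymetrix arrays in mouse embryonic fibroblasts that lack PPARγ, into which a form of the receptor had been introduced and which were then differentiated for 6 days. The 4 groups of 3 arrays were wild-type PPARγ with 1 µM rosiglitazone for 24 h, wild-type PPARγ with 1 µM MRL24 for 24 h, S273A PPARγ without ligand, and wild-type PPARγ without ligand (WT). Sample titles name the S273A group only as mutant, and its substitution is given in the series text. The labels do not say how the receptors were introduced, whether cells without ligand received vehicle, or whether a group's arrays represent separate cultures, so p-values measure the spread between arrays, which may be technical. As far as the labels say, each receptor form was in 1 population of cells, so an effect of the substitution and a difference between those populations cannot be told apart.

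PPARγ is a nuclear receptor that fat cells need to differentiate, and it is the receptor for the thiazolidinedione rosiglitazone, a full agonist. In fat tissue of obese mice Ser273 is phosphorylated by CDK5. Ligands that are strong or weak agonists can block that phosphorylation, MRL24 among the weak ones, and S273A, with alanine in place of the serine, cannot be phosphorylated there. The series sets these 3 conditions against unliganded wild-type receptor.

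The 3 genes have unrelated products. Cyp2f2 is a cytochrome P450 best known from club cells of the mouse airway, where it oxidises naphthalene and styrene. Txnip encodes thioredoxin-interacting protein, an alpha-arrestin that binds thioredoxin and promotes removal of glucose transporters from the cell surface, and its transcription follows glucose through the factors ChREBP and MondoA with their partner MLX. Selenbp1 encodes selenium-binding protein, a methanethiol oxidase that is abundant in mature fat cells. Selenbp2 is its near-identical mouse neighbour.

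The promoters are shown because the genes were selected for moving together with the receptor form. They are the 250 bases before each RefSeq start site on GRCm38.p6, with Selenbp2 added as the paralog. Capitals mark every match on either strand to AGGTCA (nuclear receptors), to CACGAG (the E-box of glucose-responsive genes), to CCAAT (the factor NF-Y) and to TATAA (the TATA box), where adjoining capitals can belong to neighbouring or overlapping matches.
Cyp2f2, chr7:27119705-27119954, + strand: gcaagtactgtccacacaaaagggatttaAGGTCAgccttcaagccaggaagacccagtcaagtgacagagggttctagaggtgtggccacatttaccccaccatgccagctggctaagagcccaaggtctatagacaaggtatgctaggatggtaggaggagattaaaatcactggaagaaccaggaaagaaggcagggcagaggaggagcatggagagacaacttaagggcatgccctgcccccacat
Txnip, chr3:96557707-96557956, + strand: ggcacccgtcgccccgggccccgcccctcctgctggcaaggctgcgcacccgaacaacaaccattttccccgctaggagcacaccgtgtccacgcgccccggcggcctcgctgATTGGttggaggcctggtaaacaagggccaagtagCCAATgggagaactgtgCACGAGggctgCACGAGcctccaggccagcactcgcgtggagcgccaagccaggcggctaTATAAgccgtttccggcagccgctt
Selenbp1, chr3:94932833-94933082, + strand: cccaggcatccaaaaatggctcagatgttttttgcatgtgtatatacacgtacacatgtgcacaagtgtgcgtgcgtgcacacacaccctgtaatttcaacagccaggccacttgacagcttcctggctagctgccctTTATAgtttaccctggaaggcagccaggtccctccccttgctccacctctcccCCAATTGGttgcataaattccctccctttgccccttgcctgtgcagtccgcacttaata
Selenbp2, chr3:94693323-94693572, + strand: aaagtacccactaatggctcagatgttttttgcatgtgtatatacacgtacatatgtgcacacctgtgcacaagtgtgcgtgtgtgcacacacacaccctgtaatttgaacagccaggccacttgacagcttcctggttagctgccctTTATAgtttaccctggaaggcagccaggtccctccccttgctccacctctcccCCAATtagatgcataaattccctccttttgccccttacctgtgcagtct

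AGGTCA, the single site of nuclear receptors, began 221 bases before the start of Cyp2f2 and had no match in the other windows. It was found in 14.0% of all 32851 promoters of this length. AGGTCANAGGTCA, the direct repeat that PPARγ binds with RXR, had no match in the 4 windows, and 0.0335% of all promoters held it. These counts describe the letters of the windows and nothing beyond them.

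In the Txnip window CACGAG, an E-box of the kind found in carbohydrate response elements, began 85 and 74 bases before the start. It stood in 5.37% of all promoters. Its pair 5 bases apart, CACGAGNNNNNCACGAG, was in no other promoter of the 32851, but that spacing was read from this window. The palindromic E-box CACGTG, in 6.02% of all promoters, had no match in the 4 windows.

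CCAAT, in 33.8% of all promoters, had 2 matches in Txnip, 2 in Selenbp1 and 1 in Selenbp2. Those in Txnip began 137 and 102 bases before the start. TATAA, in 22.8% of all promoters, began 25 bases before the start of Txnip. Its matches in Selenbp1 and Selenbp2 were on the opposite strand, 112 and 102 bases before the start. The windows of Selenbp1 and Selenbp2 were identical at 224 of 238 aligned bases (94.1%). GC content was 66.8% in the Txnip window, 51.6% in those of Cyp2f2 and Selenbp1 and 49.2% in that of Selenbp2, against a median of 52.4% over all promoters.

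Before the comparisons, the arrays were checked as a whole. Array medians lay between 297 and 315, and 2.11% to 2.48% of an array's values were at or under 1. WT replicate 2 stood apart: its residuals had an SD of 0.142 on the log2 scale, against 0.0883 to 0.1201 on the other 11 arrays, so the differences of the 3 genes from WT are also given without it, and calls of named list genes that were lost without it are marked. The 10 fibroblast markers, 9 of them above the filter, summed to between 94130.3 and 112751 on every array, and the adipocyte marker Fabp4 was bright in every group, while Adipoq and Cidec, which mark mature fat cells, were below the filter. Of 7 markers of lung epithelium, club and alveolar cells together, Scgb1a1, which defines club cells, read at most 26.9 on any array. The other 6, surfactant genes among them, were above the filter, with Sftpb highest at up to 731. All 7 summed to 1812 to 2060 with rosiglitazone, 2016 to 2165 with MRL24, 1792 to 1864 in S273A cells and 1891 to 1959 in WT cells. Of 7 liver cell markers on the array Ttr alone was above the filter, at up to 880, while Alb read at most 118 and Apoa2 at most 3.8. The part of these transcripts in the values of Cyp2f2 was not tested.

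**Figure D1:**
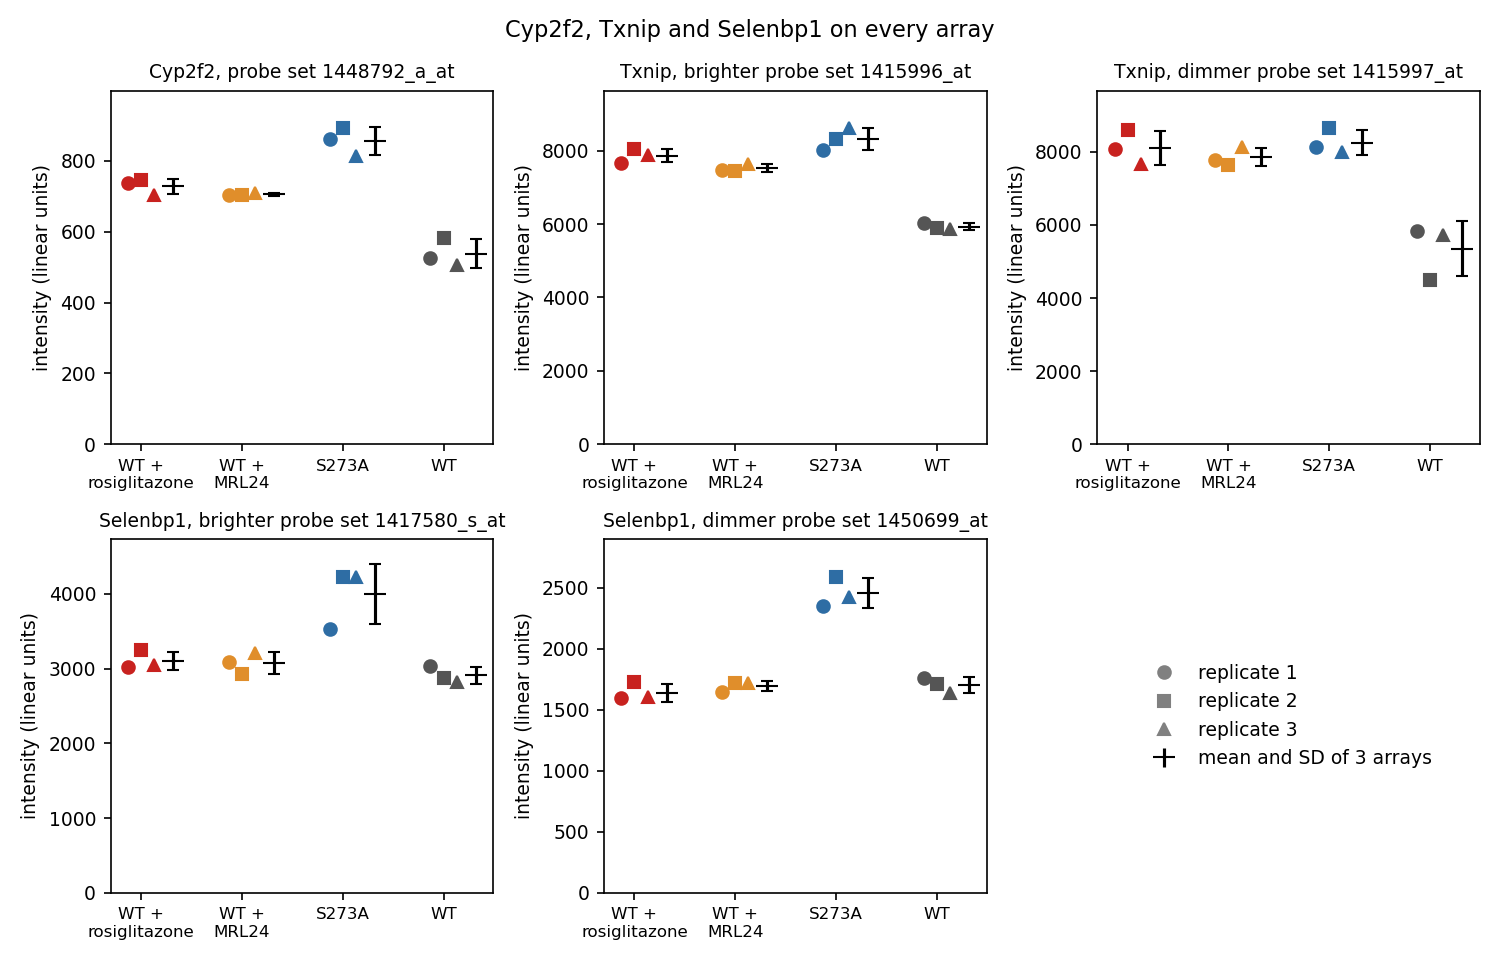
Intensity on every array (vertical axes, linear units from 0) of the 5 probe sets of Cyp2f2, Txnip and Selenbp1, in the 4 groups; symbols are replicates, and the bar beside them is the mean with the SD of 3 arrays. The rosiglitazone and MRL24 arrays lie above the WT arrays for Cyp2f2 and Txnip and overlap them for Selenbp1.

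Txnip rose with either ligand. Its brighter probe set read 7672, 8039 and 7874 with rosiglitazone and 7483, 7447 and 7649 with MRL24. It read 8016, 8328 and 8607 in S273A cells, and 6036, 5897 and 5857 in WT cells. Every ligand array and every S273A array lay above the highest WT array. Over all genes tested, 12.1% had every rosiglitazone array above every WT array, 15.6% every MRL24 array and 9.11% every S273A array. Means were 7862 ± 184 with rosiglitazone, 7526 ± 107 with MRL24, 8317 ± 296 in S273A cells and 5930 ± 94 in WT cells (SD, n = 3 each).

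Rosiglitazone raised Txnip 1.32-fold over WT (log2 difference 0.41 ± 0.036 SE on log2(intensity + 16), limma adjusted p = 3.16e-06), and MRL24 raised it 1.27-fold (0.34, adjusted p = 0.000143). Intervals were 0.328 to 0.483 and 0.266 to 0.421 at 95% confidence. The group order was S273A, rosiglitazone, MRL24 and WT, in which the S273A and rosiglitazone arrays overlapped while each of the other neighbours was separated.

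The dimmer Txnip probe set read 8063, 8604 and 7679 with rosiglitazone and 7775, 7643 and 8123 with MRL24. In S273A cells it read 8131, 8639.6 and 7988, and in WT cells 5843, 4482 and 5737. The same groups were high, and the value of WT replicate 2 was the lowest of all 12. The rise on this probe set was 0.61 with rosiglitazone (adjusted p = 0.000102) and 0.56 with MRL24 (adjusted p = 0.00108). Without WT replicate 2 it was 0.48 with rosiglitazone (adjusted p = 6.6e-06) and 0.44 with MRL24 (adjusted p = 0.000133), and on the brighter probe set 0.40 and 0.34 (adjusted p = 4.41e-06 and 0.000199).

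Cyp2f2 also rose with either ligand. Its only probe set read 737, 745 and 704 with rosiglitazone and 703, 703 and 711 with MRL24. It read 863, 892 and 813 in S273A cells, and 527, 583 and 506 in WT cells. The S273A arrays were highest and the WT arrays lowest, with no overlap of either with any other group, while the rosiglitazone and MRL24 arrays overlapped. Arrays lay wholly above WT for 12.1% of all genes with rosiglitazone, 15.6% with MRL24 and 9.11% with S273A. They lay wholly below S273A for 13.7% with rosiglitazone and 13.8% with MRL24.

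Cyp2f2 averaged 728 ± 22 with rosiglitazone, 705 ± 4.7 with MRL24, 856 ± 40 in S273A cells and 538 ± 40 in WT cells (SD, n = 3 each). The rise over WT was 1.34-fold with rosiglitazone (0.43 ± 0.066 SE, interval 0.287 to 0.567, adjusted p = 0.000658) and 1.30-fold with MRL24 (0.38, interval 0.242 to 0.522, adjusted p = 0.00741). Fitted on the MRL24 and WT arrays alone, the MRL24 rise missed the threshold (adjusted p = 0.0514). Without WT replicate 2 the rises were 0.48 and 0.44 (adjusted p = 0.000228 and 0.00393).

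Selenbp1 was not called with either ligand, on either probe set. The brighter one read 3019.5, 3245 and 3045 with rosiglitazone and 3085, 2923 and 3212 with MRL24. In S273A cells it read 3534, 4223 and 4228, and in WT cells 3036, 2873 and 2824. The S273A arrays were above all others, and the other 3 groups overlapped one another. Means were 3103 ± 123 with rosiglitazone, 3074 ± 145 with MRL24, 3995 ± 399 in S273A cells and 2911 ± 111 in WT cells (SD, n = 3 each).

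The other Selenbp1 probe set read 1591, 1723 and 1600.35 with rosiglitazone and 1647, 1719 and 1720.1 with MRL24. It read 2348, 2587 and 2423 in S273A cells, and 1763, 1713 and 1633 in WT cells. Again the S273A arrays alone were high. Means were 1638 ± 73 with rosiglitazone, 1695 ± 42 with MRL24, 2453 ± 122 in S273A cells and 1703 ± 65 in WT cells (SD, n = 3 each).

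The brighter probe set carries the accession of Selenbp2 although its annotation names Selenbp1, and its suffix marks probes that can match more than 1 transcript. The dimmer one carries the accession of Selenbp1. In the annotation used here, 0 probe sets carry the symbol Selenbp2, alone or with others, and the brighter values may hold RNA of both genes. For rosiglitazone against WT the log2 difference was 0.092 on the brighter (interval -0.046 to 0.229, adjusted p = 0.423) and -0.056 on the dimmer (interval -0.173 to 0.062, adjusted p = 0.582). For MRL24 against WT it was 0.078 (interval -0.06 to 0.215, adjusted p = 0.48) and -0.0059 (interval -0.123 to 0.111, adjusted p = 0.959). Without WT replicate 2 the brighter gave 0.083 with rosiglitazone and 0.069 with MRL24 (adjusted p = 0.59 and 0.682), and the dimmer -0.051 and -0.0012 (adjusted p = 0.704 and 0.995).

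So 2 of the 3 genes were called higher with rosiglitazone, against 3.94% of all 8675 genes tested. The same number was called higher with MRL24, against 3.39% of all genes. Both comparisons share the WT arrays with the one on which the genes were selected, so WT arrays that read low would raise each of them. The median log2 difference over all genes was -0.0027 with rosiglitazone and 0.0086 with MRL24.

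The difference between genes was set against the spread directly. With rosiglitazone the log2 change of Txnip exceeded that of Selenbp1 by 0.31 ± 0.051 (SE), and that of Cyp2f2 exceeded it by 0.34 ± 0.091. With MRL24 these excesses were 0.27 and 0.30. Each had an exact two-sided permutation p of 0.1, the smallest that 3 arrays against 3 allow (0.2 after Benjamini-Hochberg adjustment over 12 such differences), so this test could not pass 0.05. Cyp2f2 and Txnip differed from each other by 0.021 with rosiglitazone (exact p = 0.8) and 0.039 with MRL24 (exact p = 0.4).

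Some markers of fat cells moved with the ligands as well. The 8 of 10 adipocyte markers on the array summed to 30789 to 31171 with rosiglitazone, 19716 to 19931 with MRL24, 13596 to 14762 in S273A cells and 12713 to 14626 in WT cells. Most of each sum was Fabp4, which averaged 25153 with rosiglitazone, 15339 with MRL24, 9701 in S273A cells and 9509 in WT cells. Of the 6 above the filter, 3 were called higher with rosiglitazone (3.94% of all genes were) and 2 with MRL24 (3.39%). Retn, Cebpa and Pparg had no call against WT with either ligand. Their part in the rises of Txnip and Cyp2f2 was not tested. In RNA from a whole culture, fewer cells of a type and less RNA per cell cannot be told apart.

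**Figure D2:**
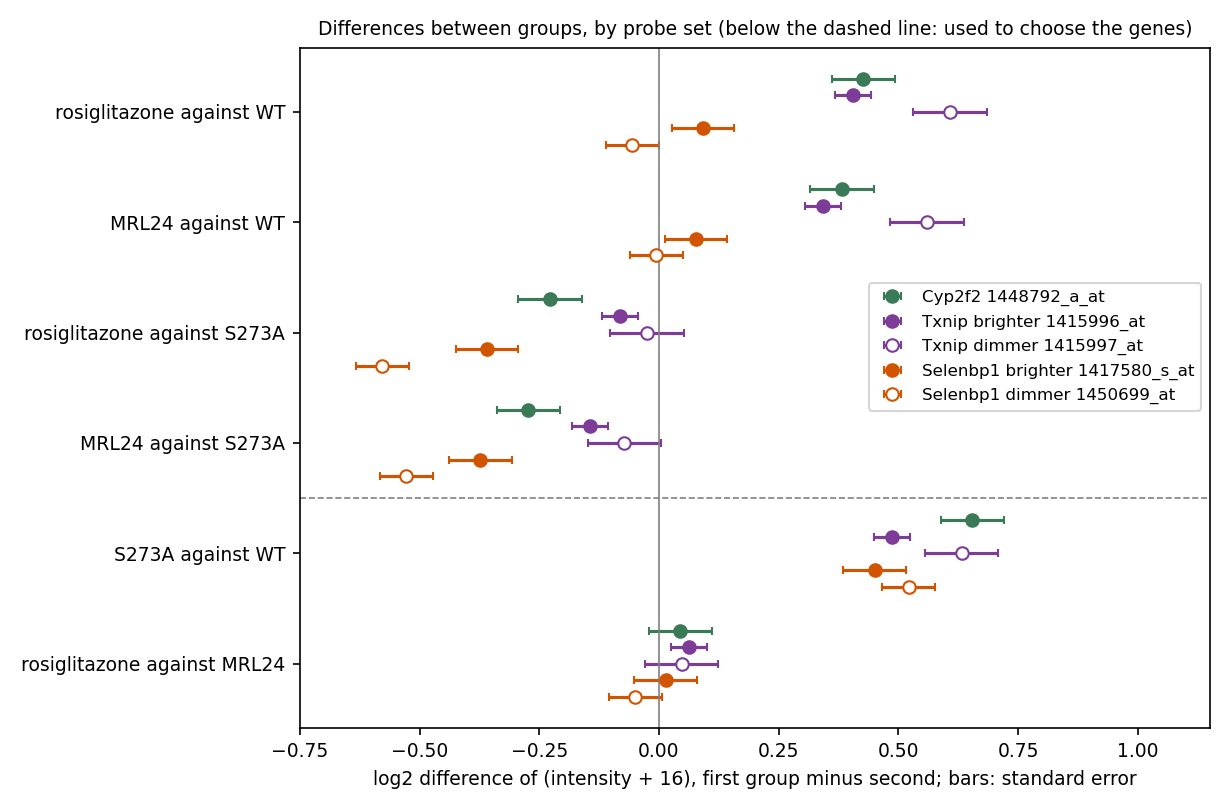
Log2 difference of intensity + 16 between groups (horizontal axis) for each of 5 probe sets in 6 comparisons; bars are standard errors of the fit over all 12 arrays. Above the dashed line Selenbp1 lies near 0 against WT and furthest below 0 against S273A, while Txnip lies above 0 against WT and nearest to 0 against S273A; the comparisons under the line were used to select the genes.

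The ligand groups were next set against S273A cells. These comparisons share the S273A arrays on which the genes were selected as high. S273A arrays that read high would therefore lower each difference below, and its p-value does not allow for that. Selenbp1 was lower with rosiglitazone by 1.28-fold (-0.36, adjusted p = 0.0018) and with MRL24 by 1.29-fold (-0.37, adjusted p = 0.00221). On its dimmer probe set the differences were -0.58 (adjusted p = 5.32e-06) and -0.53 (adjusted p = 3.82e-05). No array of a ligand group reached the lowest S273A array on either probe set. All rosiglitazone arrays lay below all S273A arrays for 13.7% of all genes, and all MRL24 arrays for 13.8%.

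Cyp2f2 was lower with rosiglitazone than in S273A cells (-0.23, interval -0.368 to -0.088, adjusted p = 0.0394) and lower with MRL24 (-0.27, interval -0.412 to -0.133, adjusted p = 0.0163). The rosiglitazone call was lost without any 1 of the 3 rosiglitazone arrays (adjusted p = 0.0883, 0.0764 and 0.138 without replicates 1, 2 and 3), of the 3 MRL24 arrays (0.0563, 0.0587 and 0.0542) or of S273A replicate 1 or 2 (0.099 and 0.143). The MRL24 call was lost without MRL24 replicate 1, 2 or 3 (adjusted p = 0.0539, 0.0603 and 0.053) or S273A replicate 2 (0.0697).

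Txnip gave no call between rosiglitazone and S273A cells (-0.081, interval -0.158 to -0.003, adjusted p = 0.202), and was lower with MRL24 than in S273A cells on the brighter probe set only (-0.14, interval -0.221 to -0.066, adjusted p = 0.0216). On the dimmer probe set the MRL24 difference was -0.072 with overlapping arrays (adjusted p = 0.598). The MRL24 call was lost without MRL24 replicate 1, 2 or 3 (adjusted p = 0.0754, 0.0908 and 0.0517) and without S273A replicate 2 or 3 (0.0624 and 0.0866). Thus 2 of the 3 genes were called lower with rosiglitazone than in S273A cells, against 4.20% of all genes, and 3 of 3 with MRL24, against 3.73%. The S273A arrays, too, were part of the selection, which favours calls in this direction.

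Markers of other cells differed in the same comparisons. Of 9 fibroblast markers 4 were higher with rosiglitazone and 5 with MRL24 than in S273A cells, and none was lower; the list summed to 102097 to 107609 with rosiglitazone, 108877 to 112751 with MRL24 and 94130.3 to 100743 in S273A cells. Of 4 macrophage markers above the filter 2, Cd68 and Cd14, were lower with each ligand; all 8 summed to 3040.25 to 3371 with rosiglitazone, 3076 to 3183 with MRL24 and 3622 to 3738 in S273A cells. Over all genes 5.36% were called higher and 4.20% lower with rosiglitazone than in S273A cells, and 6.31% and 3.73% with MRL24. The part of these lists in the differences of the 3 genes was not tested.

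Against WT, S273A cells gave the values that selected the genes, and they are given without a test. Cyp2f2 was 1.57-fold higher (0.65 ± 0.066 SE), Txnip 1.40-fold (0.49 ± 0.036; 0.63 on the dimmer probe set) and Selenbp1 1.37-fold (0.45 ± 0.065; 0.52 on the dimmer). Without WT replicate 2 the differences were 0.71 for Cyp2f2, 0.48 for Txnip (0.51 on the dimmer) and 0.44 for Selenbp1 (0.53 on the dimmer). All 3 S273A arrays lay above all 3 WT arrays for each gene, as did 9.11% of all genes tested, and 2.31% of all genes were called higher. Nothing is read from that count, since the genes were selected for it.

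S273A cells differed from WT cells in markers too, where 2.31% of all genes were called higher and 5.48% lower. Of 9 fibroblast markers 6 fell with S273A (7 without WT replicate 2), among them Pdgfra (1364 ± 92 in S273A cells and 2134 ± 119 in WT cells, SD, n = 3 each), and the list summed to 94130.3 to 100743 in S273A cells and 98718 to 111493 in WT cells. None of the 6 adipocyte markers above the filter was called by limma (2 had an unadjusted p under 0.05), and without WT replicate 2 Lpl was called higher (0.19, adjusted p = 0.034). Of 4 macrophage markers above the filter Cd68 rose, to 870 ± 11 in S273A cells against 556 ± 37 in WT cells. All 8 macrophage markers summed to 3622 to 3738 in S273A cells and 2859 to 3356 in WT cells, while Lyz2 read at most 24.5 and Ptprc at most 63.4 on any array. The part of these marker lists in the differences of the 3 genes was not tested.

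Pparg, the receptor's own gene, averaged 834 ± 76 with rosiglitazone, 846 ± 21 with MRL24, 1073 ± 162 in S273A cells and 904 ± 98 in WT cells (SD, n = 3 each). It was called lower with rosiglitazone than in S273A cells (-0.35, adjusted p = 0.036) and lower with MRL24 than in S273A cells (-0.33, adjusted p = 0.0491), and had no call between S273A and WT. Whether its probe set reads the introduced receptor, the host's disrupted gene or both was not tested.

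Between the ligands, at the same dose and time, differences were small, which is how the genes were selected, and they are given without a test. Rosiglitazone minus MRL24 was 0.045 ± 0.066 for Cyp2f2, 0.063 ± 0.036 for Txnip and 0.014 ± 0.065 for Selenbp1 (log2, SE). On the dimmer probe sets it was 0.047 for Txnip and -0.05 for Selenbp1. The 3 rosiglitazone arrays lay above the 3 MRL24 arrays for Txnip on its brighter probe set alone, and for 11.2% of all genes. Over all genes 2.66% were called between the ligands, and nothing is read from the members' values against that share.

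**Figure D3:**
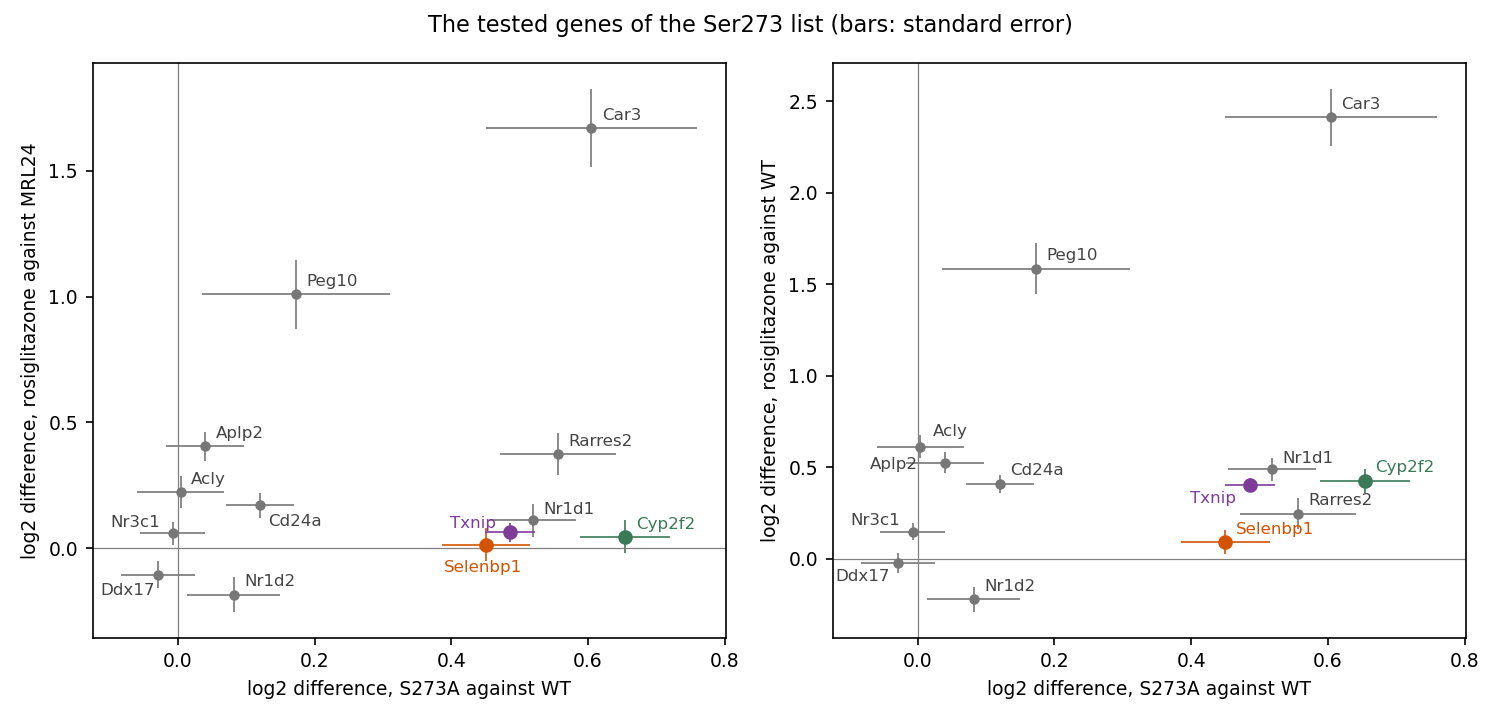
Log2 differences of the 13 tested genes of the Ser273 list: S273A against WT on both horizontal axes, rosiglitazone against MRL24 (left panel) and rosiglitazone against WT (right panel) on the vertical axes; bars are standard errors. Cyp2f2, Txnip and Selenbp1 lie near 0 in the left panel, as selected, and in the right panel Selenbp1 lies at 0.092 below Txnip at 0.41 and Cyp2f2 at 0.43.

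The other genes of that list show what the 3 were set apart from. The list was recalled from the published work, which may have drawn it from these samples, so its direction is not independent evidence. It has 14 other members, of which Adipoq and Cidec were below the filter and Cfd and Rybp had no probe set of their own. Of the 10 other members tested, 6 rose with rosiglitazone against WT (median 0.45), against 3.94% of all genes. With MRL24 5 rose (median 0.181), against 3.39%, and with S273A 3 (median 0.101), against 2.31%. None fell in these 3 comparisons. Leaving out WT replicate 2 made these counts 7, 4 and 3: Rarres2 gained a call with rosiglitazone (0.38, adjusted p = 0.00103) and Peg10 lost its call with MRL24 (0.61, adjusted p = 0.0573). Between the ligands 4 were higher with rosiglitazone (median 0.197, against -0.016 over all genes, of which 1.5% were called higher).

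Car3, a carbonic anhydrase of fat cells, averaged 458 ± 30 with rosiglitazone, 133 ± 12 with MRL24, 121 ± 28 in S273A cells and 73.3 ± 10.3 in WT cells (SD, n = 3 each). It stood 1.67 higher on the log2 scale with rosiglitazone than with MRL24 (adjusted p = 8.39e-06). Rarres2, which encodes the adipokine chemerin, rose with S273A by 0.56 (adjusted p = 0.00083) and was higher with rosiglitazone than with MRL24 by 0.37 (adjusted p = 0.0264). Nr1d1, the gene of the circadian repressor REV-ERBα, lay closest to Cyp2f2 and Txnip among them: it rose by 0.49 with rosiglitazone, 0.38 with MRL24 and 0.52 with S273A, with a difference of 0.11 between the ligands.

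Genes with the most similar profiles were ranked over the 12 arrays by the root mean square difference of log2 values, each profile centred on its own mean. These genes were found by their values, so no test is given for their likeness. The arrays are those on which Cyp2f2, Selenbp1 and Txnip were selected, so likeness among these members is in part built in. Txnip was the nearest of all tested genes to Cyp2f2, at 0.092, followed by Msmo1, a sterol synthesis enzyme, at 0.104, Gadd45g at 0.112, Nr1d1 at 0.124 and Abhd5, the activator of fat cell lipolysis, at 0.129. Cyp2f2 was not among the 5 nearest to Txnip on either Txnip probe set. The nearest to Txnip were Dusp1, a phosphatase of MAP kinases, at 0.0728, Msmo1 at 0.0748, Rsrp1 at 0.0749, Nr1d1 at 0.0781 and Col4a1 at 0.0791. On its dimmer probe set they were Ccng1, a cyclin, at 0.0895, Nr1d1 at 0.1063, Rara, a retinoic acid receptor, at 0.1066, Jak3 at 0.119 and Sema3c at 0.127. Only Nr1d1 was among the 5 nearest on both probe sets. Like the dimmer Txnip probe set, Ccng1, Nr1d1, Rara, Jak3 and Sema3c were lowest of all 12 arrays on WT replicate 2. So were Dusp1, Rsrp1 and Col4a1 among the nearest to the brighter probe set, while Msmo1 and that probe set were not. In WT replicates 1, 2 and 3 Dusp1 read 5095, 4936 and 4946 and Rsrp1 1965, 1829 and 1984. Col4a1 read 6363, 6073 and 6266 there, and Nr1d1 1802, 1761 and 2067. WT replicates 1, 2 and 3 read 2798, 2307 and 2856 for Ccng1 and 878, 626 and 894 for Rara. They read 452, 332 and 427 for Jak3 and 932, 622 and 878 for Sema3c. Another Ccng1 probe set read 2449, 2165 and 2461 there, and a further one 3001, 3245 and 2884. The part of that array in these distances was not tested. Dusp1 averaged 6071 with rosiglitazone, 5751 with MRL24, 6271 in S273A cells and 4992 in WT cells.

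Selenbp1 had other neighbours. Psmd8, a proteasome subunit, was nearest at 0.0727, then Amz2 at 0.0814, Parp6 at 0.0865, Abhd8 at 0.0876 and Eif2d at 0.0894. Txnip stood at 0.147 from Selenbp1, with 296 tested genes nearer. Taking the dimmer Selenbp1 probe set, Selenop was nearest at 0.0451, followed by Ankrd33b at 0.0752, Rgl1 at 0.0764, Arrdc4 at 0.0901 and Eif2d at 0.0958. Only Eif2d was among the 5 nearest on both probe sets.

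**Figure D4:**
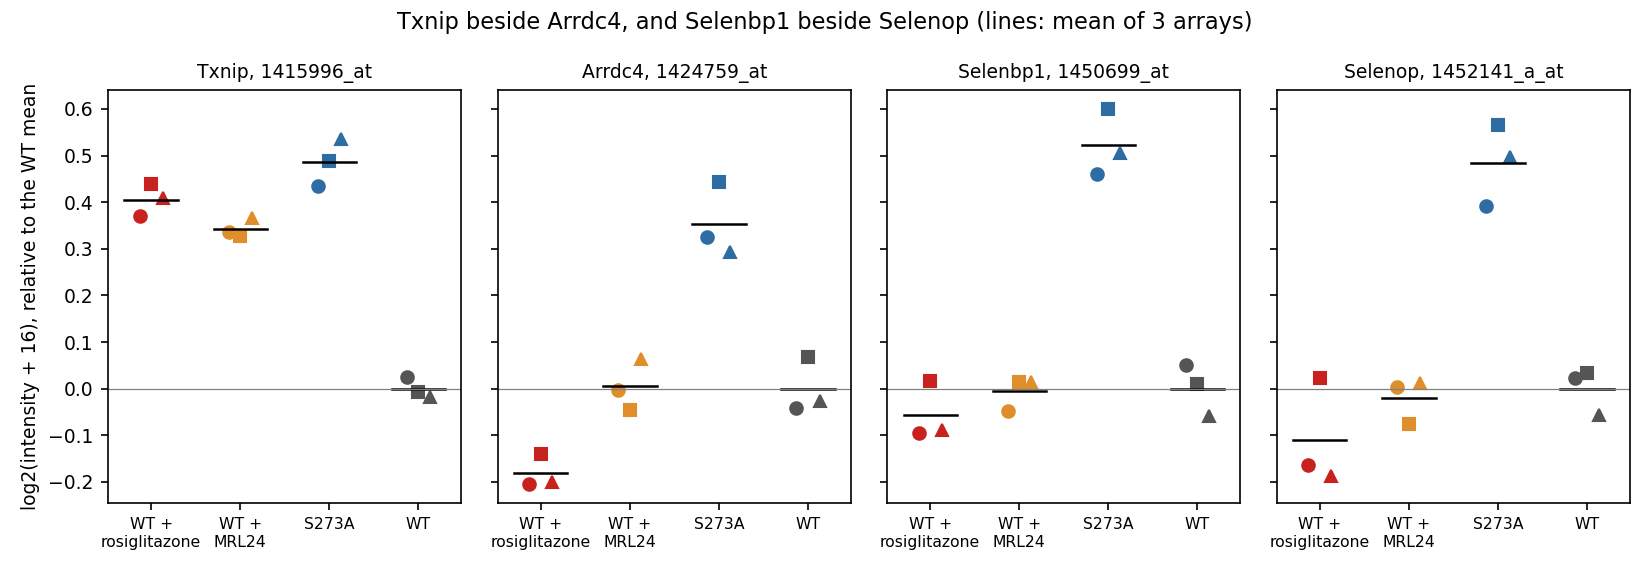
Log2(intensity + 16) relative to the WT mean (vertical axis) of Txnip, its relative Arrdc4, Selenbp1 on its dimmer probe set, and Selenop, in the 4 groups; points are arrays, with circle, square and triangle for replicates 1, 2 and 3, and lines are means of 3. Txnip is high in 3 groups, and on the probe sets drawn the other genes are high in S273A cells alone; a dimmer Arrdc4 probe set, not drawn, is not.

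Arrdc4 is the alpha-arrestin most like Txnip and another target of ChREBP and MondoA. Its brighter probe set read 1412, 1478 and 1416 with rosiglitazone and 1627, 1578 and 1703 with MRL24. It read 2047, 2219.9 and 1999.7 in S273A cells, and 1583, 1709.5 and 1598 in WT cells. The S273A arrays were highest and the rosiglitazone arrays lowest, with MRL24 and WT overlapping. The dimmer Arrdc4 probe set read 148, 143 and 165 with rosiglitazone and 203, 180.03 and 157 with MRL24. It read 227, 181.5 and 173 in S273A cells, and 218, 179.6 and 281 in WT cells. There the S273A and WT arrays overlapped, and only the rosiglitazone arrays lay apart, below the WT and S273A arrays.

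On the brighter probe set Arrdc4 rose with S273A by 0.35 ± 0.055 (SE, adjusted p = 0.000992), but on the dimmer it was not called, at -0.20 ± 0.152 (adjusted p = 0.491). On the brighter it differed from WT by -0.18 with rosiglitazone (adjusted p = 0.0536) and by 0.0048 with MRL24 (adjusted p = 0.967). On the dimmer it was lower with rosiglitazone (-0.51, adjusted p = 0.0455) and not called with MRL24 (-0.29, adjusted p = 0.236). The difference between Txnip and Arrdc4 was not tested. Of the 5 tested genes of the alpha-arrestin and glucose-sensing list, Arrdc4 was the only one called with S273A. Mlxip, which encodes MondoA, was the only one called against WT with rosiglitazone (-0.30, adjusted p = 0.0335; -0.25 and adjusted p = 0.121 without WT replicate 2), and none was called with MRL24 by limma (1 had an unadjusted p under 0.05). Medians of this list against WT were 0.022 with rosiglitazone, 0.004 with MRL24 and 0.2 with S273A. Of all genes 8.52%, 5.86% and 7.78% were called, in the same order. Against S273A, 1 of the 5 was called lower with rosiglitazone (median -0.116) and 2 with MRL24 (median -0.227). Over all genes 4.20% and 3.73% were called lower there. Arrdc4 was among them with either ligand on its brighter probe set, while its dimmer probe set was not called.

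Thioredoxin works with its reductases, peroxiredoxins and glutaredoxins. Of 11 tested genes of these families 2 were called with rosiglitazone against WT (8.52% of all genes were), 1 with MRL24 (5.86%) and 1 with S273A (7.78%). Txn1, which encodes the thioredoxin that Txnip binds, fell with rosiglitazone (9226 ± 344 against 10148 ± 392 in WT cells, SD, n = 3 each; -0.14, adjusted p = 0.0335) and with MRL24 (9172 ± 178; -0.15, adjusted p = 0.0361). Glrx, a glutaredoxin, fell with rosiglitazone (-0.13, adjusted p = 0.0476) and rose with S273A (0.15, adjusted p = 0.0298). Only the fall of Glrx, of these calls, kept its call without WT replicate 2, while Txn1 had adjusted p = 0.0848 with rosiglitazone and 0.106 with MRL24, and the rise of Glrx 0.0543. Medians of the list were -0.019 with rosiglitazone, -0.016 with MRL24 and -0.047 with S273A.

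Of 8 tested glucose transporter, hexokinase and insulin signalling genes, Hk2, the insulin-responsive hexokinase, fell with rosiglitazone (4341 ± 105 against 5136 ± 435 in WT cells, SD, n = 3 each; -0.24, adjusted p = 0.0151). It also fell with S273A (4115 ± 246; -0.32, adjusted p = 0.00264). Slc2a4, the insulin-responsive glucose transporter GLUT4, rose with MRL24 (268 ± 49 against 184 ± 27 in WT cells; 0.50, adjusted p = 0.0464), a call lost without WT replicate 2 (0.39, adjusted p = 0.182). The other members had no call against WT, where 8.52% of all genes were called with rosiglitazone, 5.86% with MRL24 and 7.78% with S273A.

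Selenop encodes the selenoprotein that carries selenium between tissues. It read 2122, 2419 and 2088 with rosiglitazone and 2387, 2258 and 2399 with MRL24, against 3126, 3530.3 and 3365 in S273A cells, and 2416, 2437 and 2288 in WT cells. Only the S273A arrays stood out, and the other groups overlapped. Selenop rose with S273A by 0.48 ± 0.061 (SE, adjusted p = 0.000155) and had no call with rosiglitazone (-0.11, adjusted p = 0.296) or MRL24 (-0.02, adjusted p = 0.876).

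Most of the selenium list had no call, and for S273A against WT 7.78% of all genes had one. Of its 18 tested members, Selenop alone rose with S273A and Selenot, a selenoprotein of the endoplasmic reticulum, alone fell (-0.23, adjusted p = 0.021). With rosiglitazone 3 fell and none rose, against 4.58% of all genes called lower, among them Selenow (3078 ± 187 against 4176 ± 236 in WT cells, SD, n = 3 each; -0.44, adjusted p = 0.000576). With MRL24 3 fell and none rose, against 2.47% of all genes, with Selenow at -0.28 (adjusted p = 0.0259). Of these falls only Selenow with rosiglitazone kept its call without WT replicate 2, with MRL24 none did (Selenow adjusted p = 0.0927), and Selenof gained a call with S273A (0.15, adjusted p = 0.0436). Against S273A, 2 were lower with rosiglitazone and 5 with MRL24, where Gpx3 was higher, so that 6 of 18 were called with MRL24 against 10.0% of all genes. Medians were -0.065 with rosiglitazone, -0.14 with MRL24 and 0.027 with S273A.

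Methanethiol oxidation by Selenbp1 yields hydrogen sulfide, which other enzymes clear. Of 7 tested genes of sulfide metabolism, none was called with S273A against WT by limma (3 had an unadjusted p under 0.05, and the median was 0.137). Among all genes 7.78% were called with S273A, 8.52% with rosiglitazone and 5.86% with MRL24. Against S273A, 1 of the 7 was called lower with rosiglitazone (median -0.045) and 3 with MRL24 (median -0.209). Over all genes 4.20% and 3.73% were called lower there. Sqor, the mitochondrial enzyme that oxidises sulfide, fell with rosiglitazone (1981 ± 98 against 2452 ± 125 in WT cells, SD, n = 3 each; -0.31, adjusted p = 0.00438). Mpst, which makes sulfide from mercaptopyruvate, fell with MRL24 (464 ± 42 against 577 ± 33 in WT cells; -0.31, adjusted p = 0.0392), a call lost without WT replicate 2 (-0.35, adjusted p = 0.059).

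Other cytochromes P450 and their electron donors are given beside Cyp2f2. Of 14 tested, 2 were called with rosiglitazone against WT (8.52% of all genes were), 1 with MRL24 (5.86%) and 1 with S273A (7.78%), and against S273A 1 was called with rosiglitazone (9.56%) and 3 with MRL24 (10.0%). None rose with S273A and 1 fell: Cyp1b1, a P450 of mesenchymal cells, averaged 3359 ± 5 with rosiglitazone, 3541 ± 64 with MRL24, 2949 ± 180 in S273A cells and 4159 ± 217 in WT cells (SD, n = 3 each). It fell by 0.31 with rosiglitazone (adjusted p = 0.00111), by 0.23 with MRL24 (adjusted p = 0.0183) and by 0.49 with S273A (adjusted p = 1.79e-05). Cyb5a, which encodes the electron donor cytochrome b5, rose with rosiglitazone (0.21, adjusted p = 0.0127). The fall of Cyp1b1 with MRL24 lost its call without WT replicate 2 (adjusted p = 0.059), and Cyb5a gained one with S273A (0.15, adjusted p = 0.0246). Medians of the list were 0.087 with rosiglitazone, 0.021 with MRL24 and 0.072 with S273A.

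Classical agonist targets give the scale for the ligand rises of Cyp2f2 and Txnip. Against WT, 3.94% of all genes were called higher with rosiglitazone, 3.39% with MRL24 and 2.31% with S273A, where 5.48% were called lower. Of 21 tested targets 16 rose with rosiglitazone (median 0.406), 5 with MRL24 (median 0.162) and 4 with S273A while 3 fell (median 0.052). Leaving out WT replicate 2, 15 rose with rosiglitazone, 6 with MRL24 and 5 with S273A while 3 fell. Between the ligands 13 were higher with rosiglitazone and none lower (median 0.315), against 1.5% and 1.16% of all genes. Cd36, the fatty acid transporter, averaged 1422 ± 40 with rosiglitazone, 411 ± 9 with MRL24, 302 ± 26 in S273A cells and 164 ± 13 in WT cells (SD, n = 3 each).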

How the data were processed

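Per the labels' protocols, total RNA was extracted with Trizol, copied to biotin-labelled cRNA and hybridised to Affymetrix arrays. The authors deposited linear intensity values for 22690 probe sets; the normalization and its software are not given in the sources used here, and array medians between 297 and 315 show that the values had been scaled. Of the probe sets 20380 carried 1 gene symbol in the platform annotation, 691 several, 1555 none and 64 were controls; 20351 symbols were looked up by Entrez ID and 0 changed.

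Each gene was represented by its brightest probe set, and genes with a mean intensity under the 30th percentile (132.3) were left out, which left 8675. Log2(intensity + 16) of all 12 arrays entered 1 fit (limma 3.58.1 under R 4.3.3, lmFit and eBayes with a trend), with 8 residual and 7.56 prior degrees of freedom; calls are at p under 0.05 after Benjamini-Hochberg adjustment over all genes. Every probe set was also fitted on its own. Folds come from transformed values and understate dim genes; mean ± SD are of intensities, and the number of arrays limits the precision. The procedure was tested on simulated data. Tables and figures used python 3.11.15, numpy 2.4.6, pandas 2.3.3 and matplotlib 3.10.9. Promoters come from RefSeq tables of GRCm38.p6, and all 3 genes and Selenbp2 matched.

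The genes and gene lists were chosen with earlier results of these data known. Named were the 3 genes, Selenbp2, Pparg, the 5 nearest tested genes of each, and up to 4 called members per list and comparison, fewer of which are described. Some markers, Arrdc4's second probe set and the repeat spacing in Txnip were looked at after values were seen.

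Same-numbered arrays of different groups were compared by the correlation of their deviations from group means. Over 18 pairs it ran from -0.116 to 0.147 and exceeded 0.1 in 2, so numbers were not taken as pairs.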

Additional observations from a re-analysis of the deposited data

How the results depend on the processing

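Over the 24 alternatives the rise of Txnip over WT kept its call with rosiglitazone (0.39 to 0.61) and MRL24 (0.32 to 0.56), as did that of Cyp2f2 with rosiglitazone over 23 (0.38 to 0.48), and Selenbp1 kept its call against S273A with rosiglitazone (-0.58 to -0.32) and MRL24 (-0.53 to -0.33). Cyp2f2 with MRL24 against WT missed the threshold when only those groups' arrays were fitted (0.38). Against S273A, leaving out 1 array gave -0.26 to -0.20 for Cyp2f2 with rosiglitazone, -0.31 to -0.24 with MRL24, and -0.17 to -0.12 for Txnip with MRL24, with calls lost as named above. Txnip with MRL24 against S273A also lost its call with the mean of its probe sets (-0.11) and with the dimmer probe set (-0.072), an alternative added after seeing the data; they gave 0.56 and 0.63 for S273A against WT. With the dimmer probe set Selenbp1 turned to -0.056 with rosiglitazone and -0.0059 with MRL24 against WT, uncalled on either. Neither quantile normalization nor equal medians turned a called difference of the 3 genes.

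Counts of called genes moved more. For rosiglitazone against WT (739) they were 1354 with every probe set fitted on its own, 372 with only those groups' arrays and 392 to 787 without 1 array. For MRL24 against WT (508) they were 226 with no filter, 1247 with every probe set, 50 with only those groups' arrays and 70 to 838 without 1 array. For rosiglitazone against S273A (829) they were 1276 with every probe set and 529 to 1164 without 1 array. For MRL24 against S273A (871) they were 1453 with array weights, 1471 with every probe set and 404 to 1359 without 1 array. For S273A against WT (675) they were 1152 with every probe set, 243 with only those groups' arrays and 396 to 649 without 1 array. For rosiglitazone against MRL24 (231) they were 673 with array weights, 557 with only those groups' arrays and 99 to 494 without 1 array. More features are counted with every probe set; otherwise the cause was not tested, and counts went either way with fewer arrays.

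With the replicate number as a block, the counts were 628, 355, 712, 774, 547 and 177 in the same order, and no call of the 3 genes changed; the numbers are not known to pair the arrays.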

Other observations

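Epoxide hydrolases and glutathione transferases handle reactive products such as those of P450 enzymes. Of 15 tested members of the epoxide hydrolase, glutathione transferase and NRF2 target list, 3 rose with S273A and none fell (median 0.128, against -0.0054 over all genes). They were Mgst1 (6561 ± 362 in S273A cells and 5191 ± 601 in WT cells; 0.34, adjusted p = 0.00356), Hmox1, the heme-degrading oxygenase (5378 ± 301 and 4529 ± 226; 0.25, adjusted p = 0.00896), and Ephx1, the microsomal epoxide hydrolase (4698 ± 188 and 3967 ± 306; 0.25, adjusted p = 0.00909; SD, n = 3 each). Against S273A, 7 were lower and 1 higher with rosiglitazone, and 6 were lower and none higher with MRL24, with medians of -0.157 and -0.146. Over all genes 4.20% were called lower and 5.36% higher with rosiglitazone than in S273A cells, and 3.73% and 6.31% with MRL24. For S273A against WT, 2.31% of all genes were called higher and 5.48% lower. Against WT, 2 rose with rosiglitazone, Mgst3 by 0.53 (adjusted p = 0.000307) and Mgst1 by 0.22 (adjusted p = 0.0411). Gstm1 alone fell, by 0.29 (adjusted p = 0.00438). With MRL24 none rose and Gstm5 fell by 0.30 (adjusted p = 0.0223), a call lost without WT replicate 2 (adjusted p = 0.0874). Over all genes 3.94% were called higher and 4.58% lower with rosiglitazone, and 3.39% and 2.47% with MRL24.

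Selenbp1, Selenbp2 and Txnip lie on chromosome 3 and Cyp2f2 on chromosome 7, with 61 protein-coding genes between Selenbp1 and Txnip. Of 34 tested genes between Selenbp2 and Txnip, 1 was called higher and 2 lower in S273A cells than in WT cells (median 0.013). With rosiglitazone none was called higher and 1 lower, and with MRL24 1 was called higher and 4 lower. Over all genes 2.31% were called higher and 5.48% lower with S273A. The shares were 3.94% and 4.58% with rosiglitazone and 3.39% and 2.47% with MRL24. Of 4 tested housekeeping genes, Tbp alone was called in any comparison, 0.31 higher with rosiglitazone than in S273A cells (adjusted p = 0.0291). Of 6 lung epithelial markers above the filter, Sftpb was called in 1 comparison by limma, 0.44 higher with MRL24 than in S273A cells (adjusted p = 0.0375).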
